A study of Mus musculus with 17 samples.

Results

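Clustered zinc finger protein genes are genes named Zfp, Zscan or Zkscan that lie close together in arrays on the mouse chromosomes. Members were the RefSeq protein-coding genes whose symbol begins with one of these names and a digit, and that have 3 or more other such genes with span starts within 250 kb on the same chromosome. Of 424 genes with such a symbol, 179 were members and 245 were unclustered, out of 21887 protein-coding genes in all. The rule used symbols and positions and no measured value. It does not count zinc finger genes filed under other names, so some genes called unclustered here lie in arrays whose other genes carry provisional names. It also admits proteins of another finger type: the 4 genes of the Zfp36 family, which bind RNA, have matching symbols, and none of them was clustered.

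Histone H3 acetylated at lysine 27 (H3K27ac), a mark of active promoters and enhancers, was mapped in mouse hypothalamus by bulk CUT&Tag, in which an antibody tethers a transposase to marked chromatin. The 3 bulk samples are titled biological replicates, and no strain, age or treatment is given for them in the sources used here. A single list of 183678 peaks serves the 3 samples together, so no spread between samples exists, the depth is unknown and no test between samples was possible. The other 14 samples of the series, 7 DNA and 7 RNA sub-libraries of the single-nucleus assay Paired-Tag, were not analysed here. Of 18 genes that mark neurons, oligodendrocytes, astrocytes, microglia and hypothalamic nuclei, all had a peak in the gene or near its ends. Such a peak was found in 75.2% of all protein-coding genes. A peak within 1 kb of an end was found in 16 of the 18, beside 69.2% of all protein-coding genes. In bulk tissue, acetylation in few cells and weak acetylation in many cannot be told apart.

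Zinc finger proteins of the C2H2 type bind DNA through arrays of fingers, each of which reads a few bases. Many of those in clusters also carry a KRAB domain, which recruits the corepressor Trim28 and the histone methyltransferase Setdb1 to silence transposable elements. The clusters grew by repeated tandem duplication, so neighbouring members are often copies of each other. The 3' exons that encode the fingers are known to carry heterochromatin in several cell types.

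The sequences below show what the members have in common and where they part. The first promoters are those of the member with the highest fold enrichment, Zfp329 (chr7:12818811-12819110, minus strand), and of Zfp809 (chr9:22225453-22225752, plus strand), a repressor of retroviruses that use a proline primer. Each runs from 250 bases before a start to 50 after it, as given by RefSeq in build GRCm38.p6, and capitals mark CG dinucleotides, the sites of DNA methylation.
Zfp329: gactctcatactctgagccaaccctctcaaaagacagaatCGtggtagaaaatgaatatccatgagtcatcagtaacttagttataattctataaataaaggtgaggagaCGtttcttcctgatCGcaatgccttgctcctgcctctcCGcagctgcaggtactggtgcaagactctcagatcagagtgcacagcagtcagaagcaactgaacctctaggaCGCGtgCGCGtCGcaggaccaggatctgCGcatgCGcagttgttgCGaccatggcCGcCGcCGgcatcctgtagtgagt
Zfp809: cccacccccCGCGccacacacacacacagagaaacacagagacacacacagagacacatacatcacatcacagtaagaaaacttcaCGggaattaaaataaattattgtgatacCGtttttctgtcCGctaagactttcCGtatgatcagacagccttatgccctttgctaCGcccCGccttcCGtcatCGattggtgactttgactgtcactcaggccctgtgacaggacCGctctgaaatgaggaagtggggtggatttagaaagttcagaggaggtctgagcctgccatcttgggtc
The Zfp329 promoter held 15 CG dinucleotides and that of Zfp809 held 11. Both genes had a peak over the start, with a fold enrichment of 24.2 and 21.4.

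Promoters of members without any peak were close copies of other promoters where one was listed. Zfp534 (chr4:147702582-147702881, minus strand) and Zfp988 (chr4:147305354-147305653, plus strand) lie in the same array of chromosome 4, and Zfp955a (chr17:33255096-33255395, minus strand) is an inverted copy of Zfp955b. Capitals again mark CG dinucleotides.
Zfp534: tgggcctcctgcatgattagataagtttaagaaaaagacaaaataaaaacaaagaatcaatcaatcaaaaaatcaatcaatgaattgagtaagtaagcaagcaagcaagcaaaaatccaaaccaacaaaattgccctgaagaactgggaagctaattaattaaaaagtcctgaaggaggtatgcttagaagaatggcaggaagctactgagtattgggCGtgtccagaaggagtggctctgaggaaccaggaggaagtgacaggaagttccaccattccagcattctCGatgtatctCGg
Zfp988: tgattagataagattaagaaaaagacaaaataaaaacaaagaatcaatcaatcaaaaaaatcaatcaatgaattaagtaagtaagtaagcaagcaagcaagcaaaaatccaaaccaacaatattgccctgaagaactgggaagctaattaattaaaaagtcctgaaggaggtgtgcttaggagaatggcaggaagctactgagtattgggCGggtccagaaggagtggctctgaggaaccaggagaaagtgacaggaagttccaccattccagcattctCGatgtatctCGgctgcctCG
Zfp955a: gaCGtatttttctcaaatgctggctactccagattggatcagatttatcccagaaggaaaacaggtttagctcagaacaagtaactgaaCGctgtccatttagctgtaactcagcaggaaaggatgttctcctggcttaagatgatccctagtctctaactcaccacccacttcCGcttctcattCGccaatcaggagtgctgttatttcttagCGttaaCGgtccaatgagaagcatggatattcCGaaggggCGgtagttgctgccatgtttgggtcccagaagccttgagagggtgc
Zfp534 and Zfp988 held 3 and 4 CG dinucleotides and shared 93.7% of their bases. The promoter of Zfp955a, with 8, was 100% identical to that of Zfp955b.

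Most members carried the mark, and where they did the peak was strong. A gene is called marked when a peak reaches to within 1 kb of the start or end of its span, and the fold is the linear enrichment that the authors' peak caller gave each peak, used here only to rank and describe. Of 179 members 152 were marked (84.9%, Wilson 95% interval 78.9 to 89.4), against 206 of 245 unclustered zinc finger genes (84.1%, 78.98 to 88.1) and 69.2% of all protein-coding genes. Such intervals cover counting error only and treat neighbouring copies as independent. The median of the highest fold at an end was 13.04 for marked members, with quartiles of 9.66 and 16.3, against 11.1 for marked unclustered genes and 8.54 for other marked protein-coding genes. No test was run on these differences, since the genes form 1 list measured in 1 set of peaks.

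A fold at or above 14.9, the 90th percentile of all marked protein-coding genes, was reached by 52 of 179 members (29.1%), against 30 of 245 unclustered genes (12.2%) and 6.92% of all protein-coding genes. Zfp329 ranked 14 among all marked protein-coding genes, Zkscan8 41, Zfp748 58 and Zfp809 59. Against the 148 zinc finger genes with no such neighbour the share of members was the lower value, 84.9% against 90.5%, while their median fold was the higher one, 13.04 against 10.1. Zinc finger genes with 1 or 2 neighbours had 72 of 97 marked (74.2%) and a median of 12.1. On the edge of the rule, 23 of 26 genes with exactly 3 neighbours were marked, with a median of 13.97, and 26 of 35 with exactly 2, with a median of 13.1.

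**Figure D1:**
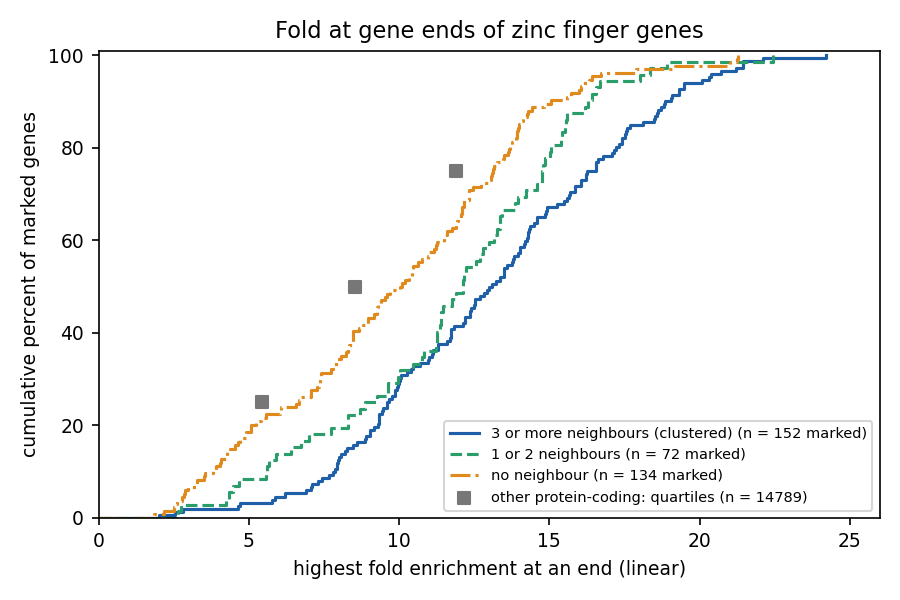
The horizontal axis is the highest fold enrichment of a peak within 1 kb of an end (linear) and the vertical axis the cumulative percent of marked genes, with lines for zinc finger genes by number of neighbours and squares for the quartiles of other protein-coding genes. The line of clustered genes reaches 50% at 13.04, to the right of genes with 1 or 2 neighbours (12.1) and with none (10.1).

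At most members acetylation was a single peak. In 117 of 179 members (65.4%) exactly 1 peak lay in the span and its end windows together. The same held for 85 of 245 unclustered genes (34.7%) and 19.8% of all protein-coding genes. With 1 or 2 neighbours the share was 41.2% and with none 30.4%. Genes without any peak count in these denominators. They made up 4.47% of members, 12.7% of unclustered genes and 24.8% of all protein-coding genes. Among unclustered genes they made up 23.7% of those with 1 or 2 neighbours and 5.41% of those with none. Only 14 members (7.82%) were marked at both ends, against 43 unclustered genes (17.6%) and 23.2% of all protein-coding genes. This share was 11.3% with 1 or 2 neighbours and 21.6% with none. At the edge of the rule it was 3.85% with exactly 3 neighbours and 2.86% with exactly 2, so a low value was not particular to members. Peaks inside the span and away from its ends were found in 62 members (34.6%), against 118 unclustered genes (48.2%) and 51% of all protein-coding genes. The order turned in the genes most like the members: 29.9% of zinc finger genes with 1 or 2 neighbours had such a peak, and at the edge of the rule the shares were 42.3% with exactly 3 neighbours and 28.6% with exactly 2. Inner peaks numbered 0.303 per 10 kb of member span, against 1.07 in unclustered genes and 1.096 in other protein-coding genes, with median spans of 15.7 kb in members against 19.4 and 17.1 kb. Among unclustered genes the rate was 0.241 with 1 or 2 neighbours and 1.36 with none, the second over genes that include Zfp536, Zfp423 and Zfp521 with 121, 83 and 61 inner peaks; Zfp536 was picked after its values were seen. Few inner peaks were thus not particular to members. Some inner peaks lay at a start given by RefSeq: of 19 members with a peak only inside the span, 16 had a peak within 1 kb of such a start. The strongest end peaks of marked members had a median width of 1091 bp, against 1202 bp in unclustered genes and 1249 bp in other genes.

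RefSeq start positions with strand were listed for 157 members, and these were used to tell starts from 3' ends. A peak lay within 1 kb of a listed start in 148 of the 157 (94.3%, Wilson 95% interval 89.5 to 97.0), against 162 of 194 unclustered genes (83.5%, 77.6 to 88.1) and 68.3% of all protein-coding genes with a listed start. Among spans over 4 kb, a peak lay within 1 kb of the 3' end in 16 of 154 members (10.4%, 6.50 to 16.2), against 35 of 188 unclustered genes (18.6%, 13.7 to 24.8) and 28.3% of all protein-coding genes. The 3' share was 11.7% in genes with 1 or 2 neighbours and 23.4% in those with none, so the low value was not particular to members. At starts of the same spans the shares were 94.2% in members, against 74.0% with 1 or 2 neighbours and 90.99% with none. Of 264 peaks in or near members, 152 lay at a listed member start, with a median fold of 12.9 and width of 1080 bp. Of the remaining 112, 82 lay in or near members with a listed start, with a median fold of 3.18 and width of 547 bp. The other 30 belonged to members without a listed start, where starts could not be told apart from other positions, and had a median fold of 9.40 and a highest of 20.4, at Zkscan3.

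**Figure D2:**
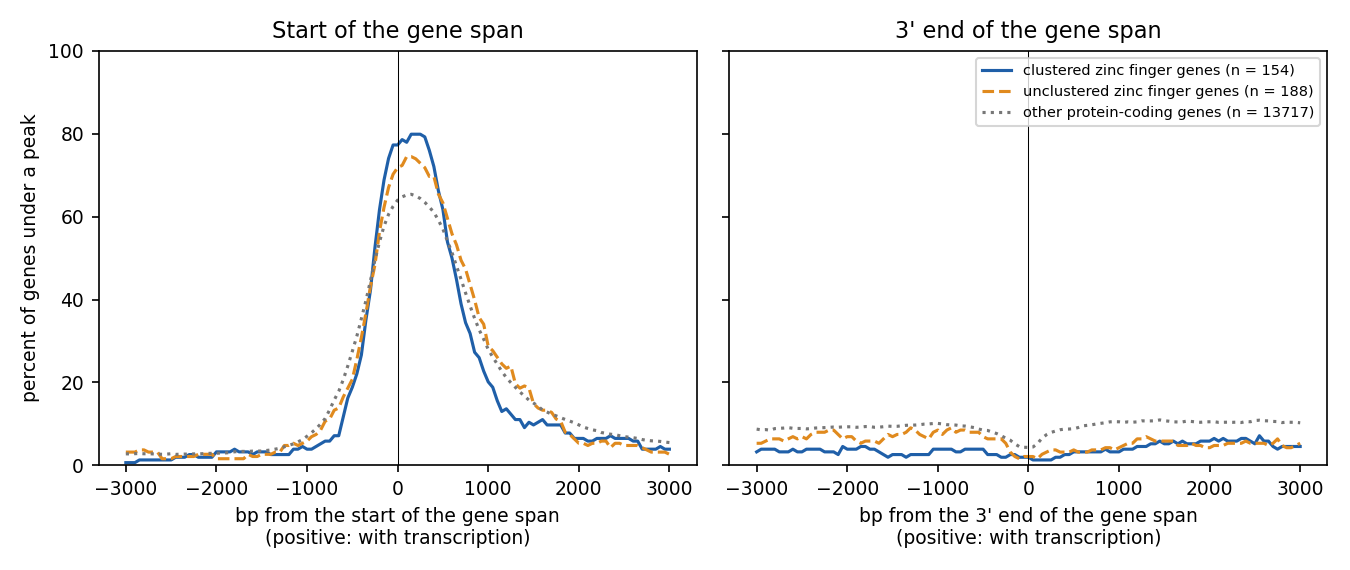
The vertical axis is the percent of genes under a peak and the horizontal axis the distance in bp from the start (left) or 3' end (right) of the gene span, for clustered and unclustered zinc finger genes and other protein-coding genes with spans over 4 kb. Clustered genes reach 79.9% at 150 bp after the start, against 74.5% for unclustered genes and 65.4% for other genes, and at the 3' side they stay at or below 7.14%.

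The 12 marked members of highest fold came from 7 arrays. Zfp329 led with 24.2, followed by Zkscan8 with 22.1, Zfp748 with 21.4, Zfp809 with 21.4 and Zfp738 with 21.2. Zscan12 had 20.7, Zkscan3 20.4, a gene whose human counterpart represses autophagy genes, Zfp866 20.3 and Zscan26 20.07. Zfp105 had 19.5, Zfp846 19.5 and Zfp85 19.3. The peaks of Zfp748 and Zfp846 also reached an end of a gene that is not protein-coding. At the other end of the range stood 12 marked members with folds from 2.02 to 7.30. Zfp428 (2.02) and Zfp787 (2.55) carried a peak of 9.07 and 10.4 at a start inside the span. For Zfp820 (2.82), Zfp947 (4.62), Zfp111 (4.70), Zfp777 (5.76), Zfp260 (5.88), Zfp994 (6.21), Zfp667 (6.89), Zfp579 (7.06) and Zfp456 (7.30) the weak peak was the one at the listed start. Zfp35 (7.09) had no listed start.

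The members formed 23 arrays of 4 to 23 genes on 10 chromosomes, with 70 members on chromosome 7, 30 on chromosome 17 and 28 on chromosome 13. An array here is a run of members whose neighbouring starts lie within 250 kb. Every member was marked in 12 arrays, which held 63 genes, and every member had a peak in its span or near its ends in 19. The median fold of marked members ran from 8.59 to 20.4 between arrays. The highest median belonged to 5 genes of chromosome 13 (chr13:21362820-21531114) that mostly encode SCAN-domain proteins: Zscan12, Zkscan3, Zscan26, Zkscan4 and Zkscan8.

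**Figure D3:**
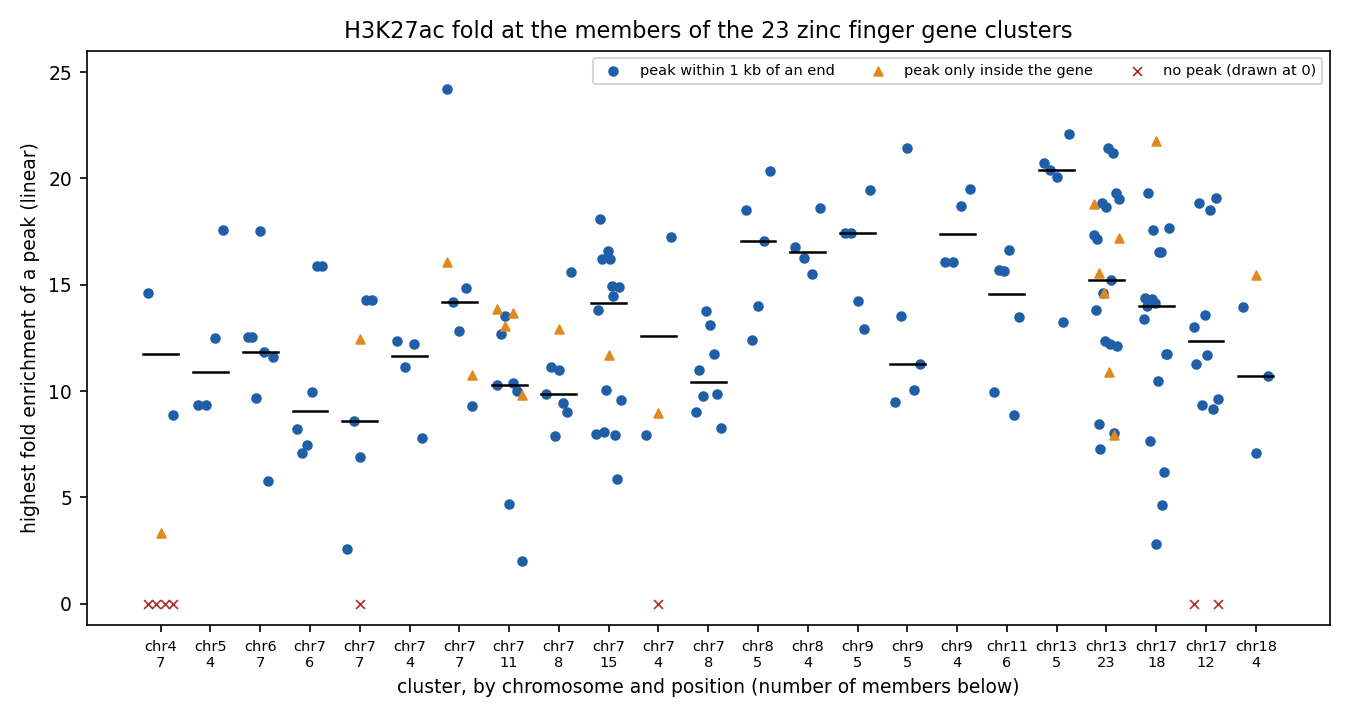
The vertical axis is the highest fold enrichment of a peak (linear) for each member and the horizontal axis the 23 arrays, with circles for members marked at an end, triangles for members with a peak only inside the gene, crosses for members without a peak and bars for the median of marked members. Crosses occur in 4 arrays, with 4 of the 8 in the chromosome 4 array, and the array of 5 genes on chromosome 13 stands highest with a median of 20.4.

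The largest array (chr13:67038594-67827000) held 23 members, among them many genes whose synonyms mark them as candidates at the regulator of sex-limitation locus, named for its repression of male-specific liver genes. Of these 17 were marked, with a median of 15.2, led by Zfp748 with 21.4. The other 6 all had a peak inside the gene: Zfp708, the first by position, had 18.8, Zfp458 14.6 and Zfp459 7.95, each at a listed start. Zfp429, listed with the synonym Rsl2 and known as a repressor of such liver genes, had 18.8. Zfp457 had 17.1, Zfp455 13.8 and Zfp456 7.30. The median of marked members at large was 13.04.

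Both arrays of chromosome 17 were mostly marked. In the first (chr17:21383707-22456689) 17 of 18 members were marked, with a median of 14.01 and Zfp53 highest at 19.3. The exception, Zfp229, had a peak of 21.8 at a listed start inside the gene. In the second (chr17:32765496-33394637) 10 of 12 were marked, with a median of 12.4 and Zfp81 highest at 19.07, and the inverted copies Zfp955a and Zfp955b had no peak. Peaks covered 2.07% of the first array's length, within a range of 0.883% to 16.1% over the 23 arrays. Over all arrays together 4.91% was covered, against 4.65% of the annotated span of the chromosomes.

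Chromosome 7 held 9 arrays, and the 7 with 6 or more members are described by their strongest one. Zfp329 led an array of 7 genes (chr7:12768090-12985717, 5 marked), where Zscan18, unmarked at its ends, had 16.1 inside, and Zfp110, whose protein binds the neurotrophin receptor p75, had 14.2. Zfp940 led a row of 15 genes (chr7:29768552-30169775) with 18.1, of which 14 were marked, and the exception Zfp790 had 11.7 at a start inside its span. In this row Zfp568, which represses a placental promoter of Igf2, had 16.2. Zfp784 had 15.9 at a peak shared with Zfp580 in an array with 6 of 6 marked. Zfp850 led another with 15.6 (7 of 8 marked, Zfp59 having 12.9 inside the gene). Zfp114 led with 13.5 in the array that holds Plaur (7 of 11 marked), where Zfp235 had 13.9 inside. Zfp747 led with 13.8 in the array that holds Srcap, with 8 of 8 members marked. Zfp28 had 14.3 at a peak shared with Zfp78 in a further array with 5 of 7 marked, in which Zscan5b had no peak.

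In the arrays of chromosomes 6 and 11 every member was marked. Zfp212 led on chromosome 6 (7 of 7) with 17.5, and Zfp746, a substrate of the ubiquitin ligase parkin, had 11.6. On chromosome 11 (6 of 6) Zfp2 led with 16.6, and the kidney-associated genes Zfp354a, Zfp354c and Zfp354b had 13.5, 9.93 and 8.86. The glutamate receptor gene Grm6 and 5 odorant receptor genes inside this array were unmarked. Over the 23 arrays 34 of 54 other protein-coding genes were marked (62.96%), near the 68.9% of all protein-coding genes without a zinc finger symbol. Among the 54 were 9 odorant receptor genes, of which 0 were marked. The share of odorant receptor genes marked elsewhere was not computed. Marked and unmarked genes thus lay within the same array.

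Members studied for their function were marked at about the share of all members. Of a list of 33 zinc finger genes studied for their function 16 were members, of which 13 were marked (81.3%, beside 84.9% of all members and 69.2% of all protein-coding genes) and the other 3 had a peak inside the gene. Zfp961 had 18.6 and Zkscan5 9.32, the second at a peak shared with Zkscan14. Zfp24, needed for myelination by oligodendrocytes, had 10.7, and Zfp445, which with Zfp57 keeps imprints in mouse embryos, had 16.1 at a peak shared with Zkscan7 and 18.4 inside the gene; Zfp24, Zfp445 and Zfp746 were picked after their values were seen. In 107 of 152 marked members the strongest end peak reached no other gene end, in 24 only genes of other kinds and in 21 another protein-coding gene. In 7 cases a pair of members had the same strongest end peak, and 9 peaks in all lay at an end of both members of a pair.

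Among unclustered zinc finger genes the highest folds were those of Zfp619 (22.4), Zfp950 (21.3), Zfp40 (21.2), Zfp512 (21.02), Zfp770 (19.2), Zfp606 (18.9), Zfp937 (18.3) and Zfp935 (18.02). Of the 17 unclustered genes on the list of known roles 12 were marked (70.6%, beside 84.1% of all unclustered genes and 69.2% of all protein-coding genes). The other 5, Zscan4c, Zscan4d, Zscan4f, Zscan10 and Zfp42, had no peak at all (29.4%, beside 12.7% of all unclustered genes). Zfp369, a relative of Zfp110, had 15.99, Zfp932, a repressor of endogenous retroviruses, 16.3, Zscan20 13.4, Zfp90 11.2, Zfp281 10.98, Zfp148 9.71, Zkscan17 8.88 and Zfp819 4.48. The developmental regulators Zfp521, Zfp423 and Zfp462 had 7.90, 3.81 and 2.77 at an end and 61, 83 and 34 peaks inside the gene. No clustered member had more than 6 inner peaks, and the 179 members held 104 together. Zfp57 had 2.96 at an end and 8.69 at a start inside the gene.

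Of a list of 24 genes for KRAB corepressors and heterochromatin machinery 22 were marked, beside the 69.2% of all protein-coding genes. Setdb1 had a fold of 21.7, the heterochromatin protein gene Cbx1 21.6 and Trim28 9.44. Tasor and Dnmt1 were unmarked at their ends and had 10.4 and 12.1 at a listed start inside the gene. The median of the 22 was 12.6, beside 13.04 for marked members.

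Most members kept the mark where their promoters were poor in CG, but all 9 members without a start peak were of this kind. The ratio of observed to expected CG dinucleotides in the listed promoter (the highest, where several starts are listed) had a median of 0.616 in members, against 0.683 in unclustered genes and 0.609 in other genes. Above a ratio of 0.6, 81 of 81 members had a peak at a listed start, against 112 of 114 unclustered genes and 96.2% of other genes. At or below it, 67 of 76 members did (88.2%), against 50 of 80 unclustered genes (62.5%) and 38.8% of other genes. Their median fold there was 13.8, against 12.6 in unclustered genes and 6.10 in other genes. Zfp738, for example, had a ratio of 0.271 and a fold of 21.2.

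Only 8 of 179 members (4.47%) had no peak in the span or within 1 kb of its ends, against 31 of 245 unclustered genes (12.7%), while 75.2% of all protein-coding genes had one. A low share was not particular to members, as it was 5.41% in zinc finger genes with no neighbour. The 8 members were Zfp988, Zfp985, Zfp979 and Zfp534 of the chromosome 4 array (chr4:147305604-147849126), Zfp955a, Zfp955b, Zfp977 and Zscan5b. In the chromosome 4 array 2 of 7 members were marked, Zfp982 with 14.6 and Zfp933 with 8.88, and Zfp984 had 3.32 inside the gene. Zfp979, with the synonym Ssm1b, is known as a strain-specific modifier of transgene methylation. Without this array 150 of 172 members were marked (87.2%).

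The 7 of these genes with a listed promoter were close copies of other genes there. Each was compared with all listed promoters by sequence alignment, and the share of its 300 bases that matched the closest promoter of another gene ran from 89% to 100%. Zfp979 matched at 96.7%, Zfp977 at 91.7% and Zfp985 at 89%. Among 14 members with a match of 90% or more, 8 had a peak at a listed start (57.1%), against 119 of 121 members with a match under 70% (98.3%). Unclustered genes showed 12 of 27 (44.4%) and 142 of 153 (92.8%). The measure does not separate copies from promoters that neighbouring genes share at 1 place. Zfp869 matched Gm51532 at 98.7%, and unclustered Zfp91 matched Gm44505 at 100%. The strongest end peak of each also reached an end of the matched gene, and both had a start peak. How many matches were of this kind was not counted. High identity did not go with a missing peak in every case: Zfp943 and Zfp758 matched each other at 97.3% and had 16.6 and 11.7. Reads from identical copies cannot be assigned to 1 of them, and the sources used here do not give whether the authors kept such reads. The part of this in the missing peaks was not tested.

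**Figure D4:**
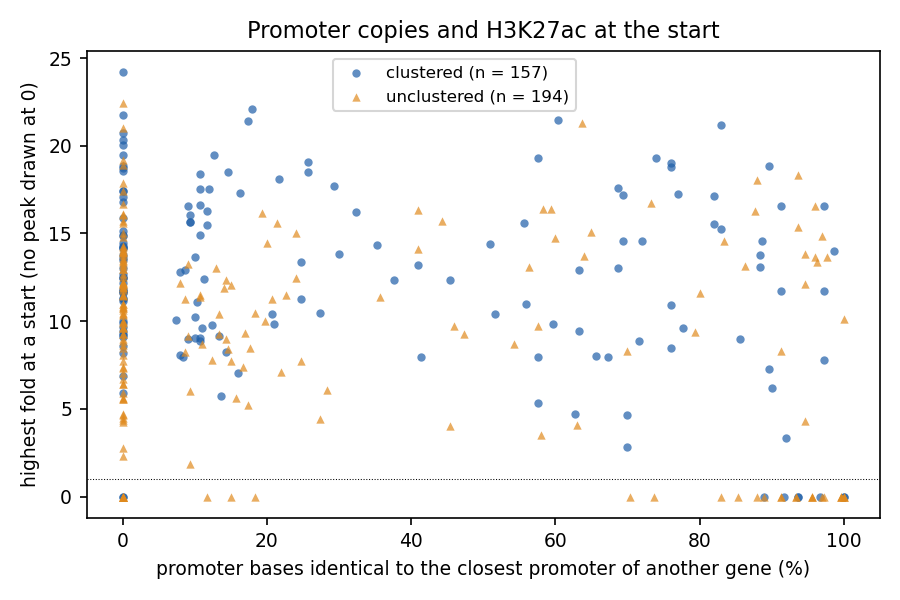
The horizontal axis is the percent of promoter bases identical to the closest listed promoter of another gene (0 where no match was found) and the vertical axis the highest fold at a listed start, with genes without such a peak drawn at 0; circles are clustered and triangles unclustered zinc finger genes. Of 9 clustered genes drawn at 0, 6 lie at 90% or more. Matches include neighbouring genes with an end at the same peak, as for Zfp869, and not copies only.

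Members of several arrays shared a short promoter element that the rule did not use. The run ACTACANTTCC (N is any base, either strand) lay in the listed promoters of 41 of 157 members (26.1%), against 9 of 194 unclustered genes (4.64%) and 1.55% of all 17492 protein-coding genes with a listed promoter. Among all words of 11 bases with 1 free inner base it was the one found in most members, ahead of overlapping words with 40, so its share among them is a description. Its letters are the core of a sequence known in human promoters as a binding site of ZNF143, whose mouse gene Zfp143 was itself marked with a fold of 8.45. The stretches below begin 6 bases before the element and are turned so that it reads forward. Capitals mark the element, coordinates are in build GRCm38.p6, and the first 5 genes lie on chromosome 13, the next 7 on chromosome 7 and the last pair on chromosome 11.
Zfp748: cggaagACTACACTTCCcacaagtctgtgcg
Zfp738: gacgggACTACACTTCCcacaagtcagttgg
Zfp457: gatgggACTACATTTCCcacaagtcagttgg
Zfp85: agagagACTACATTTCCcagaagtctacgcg
Zfp708: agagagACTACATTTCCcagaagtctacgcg
Zfp940: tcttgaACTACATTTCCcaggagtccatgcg
Zfp74: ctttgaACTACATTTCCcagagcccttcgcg
Zfp420: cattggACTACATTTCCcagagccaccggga
Zfp790: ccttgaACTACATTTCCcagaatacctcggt
Zfp93: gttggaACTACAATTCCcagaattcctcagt
Zfp109: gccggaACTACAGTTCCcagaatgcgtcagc
Zfp112: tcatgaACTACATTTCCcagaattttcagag
Zfp2: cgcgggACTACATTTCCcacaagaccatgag
Zfp354b: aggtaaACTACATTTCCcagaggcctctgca
The stretch of Zfp748 lies at chr13:67553161-67553191 (plus strand), that of Zfp93 at chr7:24270333-24270363 (minus strand) and that of Zfp2 at chr11:50916161-50916191 (plus strand).

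The element was unevenly spread. It lay in 15 of 20 listed promoters of the large chromosome 13 array and 10 of 14 in the row led by Zfp940. The array that holds Plaur had it in 7 of 10 and that of chromosome 11 in 4 of 4. In the other arrays 5 of 109 promoters held it, and 0 of 28 on chromosome 17. Followed by CACAA (ACTACANTTCCCACAA) it was found in 14 members, 12 of them in the chromosome 13 array, and in 7 of 17141 promoters of other protein-coding genes. Followed by CAGAA (ACTACANTTCCCAGAA) it was found in 16 members and in 42 of those others. These longer runs overlap the shorter one by definition. Both were picked as the continuations found in most member promoters. Their higher share among members is therefore favoured by the choice and is a description only. Matches in the chromosome 13 array lie largely in promoters that resemble each other, so they are not independent. The median share of promoter bases matching another gene was 75% there and 8.17% in the row led by Zfp940.

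Of 45 matches in members, 36 read as the reverse complement in the sense of transcription, and 34 began 100 to 1 bases before the start. All 41 members with the element had a peak at a listed start, with a median fold of 13.7 and a range of 4.70 to 21.4, against 107 of 116 without it, with a median of 13.002. Such a share was no mark of members, as 219 of 222 other protein-coding genes with the element had a start peak as well.

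**Figure D5:**
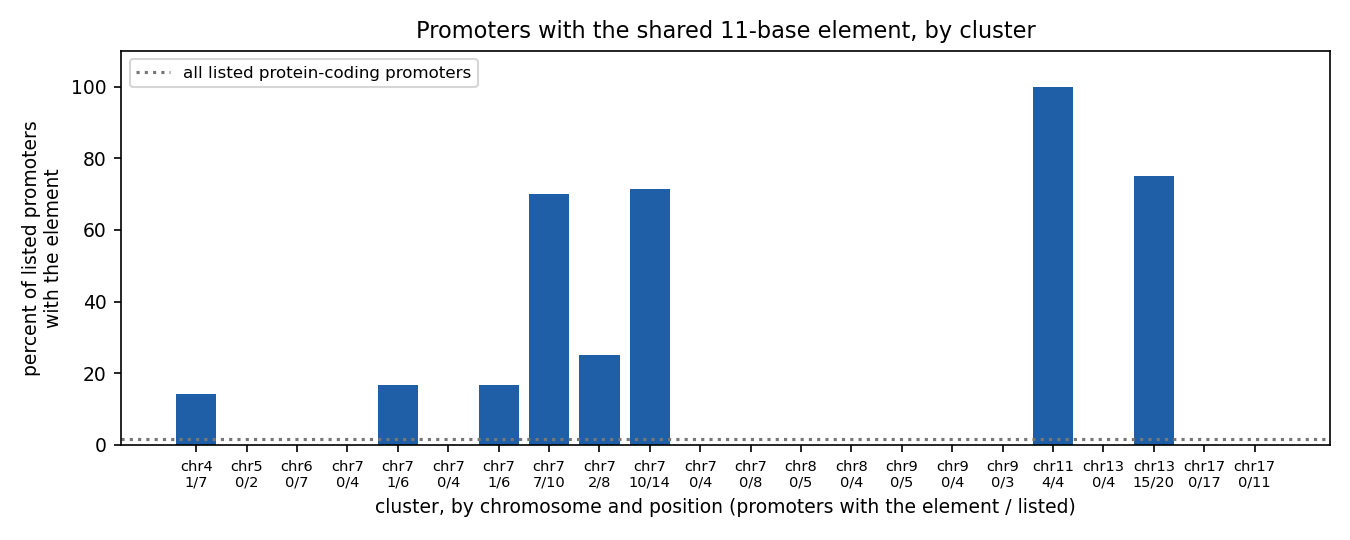
The vertical axis is the percent of listed member promoters with ACTACANTTCC and the horizontal axis the arrays by chromosome and position, with counts below; the dotted line is the share of all listed protein-coding promoters, 1.55%. Bars reach 70% or more in 4 arrays, and no bar is seen for chromosome 17 (0 of 28 promoters).

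Other short words differed less, each searched on both strands. CACGTGAC lay in 12 of 157 member promoters (7.64%), 8 of them in the first chromosome 17 array, against 3.19% of all. CCGGAAGT lay in 12.7% of member promoters against 5.69% of all, TGACGTCA in 5.73% against 2.54%, GCGCATGCG in 3.82% against 2.61% and AAGATGGCG in 1.91% against 2.14%. CCAAT lay in 45.2% against 42.3%, GGGCGG in 41.4% against 49.2% and TATAAA in 6.37% against 14.8%. In unclustered zinc finger genes the shares were 2.06% for CACGTGAC, 9.79% for CCGGAAGT, 3.09% for TGACGTCA and 5.67% for GCGCATGCG. For AAGATGGCG the unclustered share was 3.61%, for CCAAT 56.7%, for GGGCGG 49.5% and for TATAAA 11.3%.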

How the data were processed

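Per the labels' protocols, dissected hypothalamus was minced and lysed, and the labels name an H3K27ac antibody for the CUT&Tag samples. Software named in the submitters' processing notes comprises cutadapt 4.5, UMI-tools 1.1.4, STAR 2.7.10a, BWA 0.7.17 and MACS2, and the build named there is mm10; which tool served which samples is not stated. How peaks were called and how replicates were combined is likewise unstated in those notes. The deposited list has no header and was read in narrowPeak column order. Its score column, as deposited by the authors, was left unused. The fold ratio from the authors' caller ranked and described peaks, and their deposited −log10 q defined a stricter set.

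Genes came from a RefSeq table of GRCm38.p6, the assembly that mm10 denotes, and starts and promoters from RefSeq entries for 17492 protein-coding genes. Coordinates are 1-based. Promoters were aligned with blastn 2.17.0 (word size 11, e-value 0.001), and tables were made with pandas 2.3.3. Peak calling at genes, neighbour counts and the search for the most frequent promoter word were tested on simulated data. Protein sequences were not used here, so finger counts and KRAB or SCAN domains were not analysed.

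No test between groups was run, because the list has no value per sample. Named are the 12 members of highest and of lowest fold at an end, the strongest member and the first unmarked one of each array of 6 or more members, the 33 genes of the list of known roles and the 8 unclustered genes of highest fold; others were chosen after their values were seen. The members, lists and words were chosen with earlier results of these data known.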

Additional observations from a re-analysis of the deposited data

How the results depend on the processing

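The share of marked members lay within its Wilson interval (78.9 to 89.4%) in 13 of 16 alternatives. It was 94.3% at listed starts only, 91.1% with windows of 2500 bp and 95.5% over the whole span and 1 kb around it, the last chosen after seeing the data. It lay above that of other protein-coding genes in all 16, but its order against unclustered genes turned: 83.2% against 85.7% with 2 or more other genes as the rule, 83.1% against 85% with 5 or more, 80.4% against 89% with neighbours within 500 kb, and 84.9% against 90.5% beside genes with no neighbour. The median fold ran from 12.5 to 13.4 and was above unclustered and other genes in all 16. The share with a peak inside the span was 26.8% with peaks above the median −log10 q and 21.2% with peaks at or past the upper quartile for fold, below both comparison groups in each. By construction fewer peaks enter the stricter sets and more positions the wider windows; no other cause was tested. Leaving out members with promoters 90% or more identical to another, also chosen later, gave 87.9%. Restricting to proteins with a C2H2 finger was not run. No paired analysis was possible because the list has no value per replicate, so no replicate could be left out either. Depth is unknown, so an absent peak does not show absent acetylation.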

Other observations

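Unclustered zinc finger genes without a peak also lay together in a few places, which were picked after their values were seen. No peak in the span or near its ends was found in 12.7% of all unclustered genes and 5.41% of those with no neighbour. The share was 4.47% of members and 24.8% of all protein-coding genes. Of 16 zinc finger genes between 145 and 148 Mb of chromosome 4, members included, 12 had none, 8 of them unclustered. Of 7 between 175 and 178 Mb of chromosome 2, 6 had none, but just past 178 Mb Zfp971 and Zfp931 had folds of 14.9 and 13.4. The 4 genes Zscan4b, Zscan4c, Zscan4d and Zscan4f, of a family active in mouse embryos of early cleavage stages and in embryonic stem cells, had no peak. Their listed promoters matched the closest of the others at 93.3% to 95.7%. The pluripotency genes Zfp42 and Zscan10, without a close match among the listed promoters, had no peak either.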
